A study of Mus musculus with 3 samples.

Results

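Conventional dendritic cells were picked out of liver single-cell RNA profiles by their transcripts, and 130 of 29572 barcodes met the rule. A barcode, the tag shared by all RNA of 1 droplet, needed at least 1 UMI (unique molecular identifier, a counted RNA molecule) over Xcr1, Clec9a, Cd209a, Flt3, Zbtb46 and Itgae. It also needed at least 2 UMIs over the MHC class II genes H2-Aa, H2-Ab1 and H2-Eb1 and the invariant chain gene Cd74, and at most 40% of UMIs from mitochondrial (mt-) genes. Barcodes with any UMI of Siglech, Clec4f, Cd79a, Cd3e or Kdr were left out, because these genes mark plasmacytoid dendritic cells, Kupffer cells, B cells, T cells and endothelium. The members were thus chosen by their own counts of these genes, which are given as a description with no test.

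The livers came from male C57BL/6 mice of 9 weeks with 3 Adar1 genotypes: flox/flox, wt/flox and wt/wt. Every mouse lacked Ifih1, which encodes the double-stranded RNA sensor MDA5, and every mouse carried Alb-Cre. The albumin promoter drives Cre in hepatocytes, so that dendritic cells are not the cells in which this transgene is made to act. Each genotype had 1 library of the 10x Genomics 3' kit, so no difference between libraries had a replicate and no test was possible. Perfused livers were digested with collagenase, spun slowly and cleaned on Percoll, steps that keep hepatocytes and can set the share of other cells.

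Conventional dendritic cells take up antigen, cut it in endosomes and lysosomes, and show its peptides to T cells on MHC molecules. They fall into a cDC1 kind, which carries Xcr1 and Clec9a, depends on the transcription factors Irf8 and Batf3 and excels at showing engulfed material on MHC class I. The cDC2 kind carries Cd209a and Sirpa, shares many transcripts with monocytes and presents mainly on MHC class II. In the liver both kinds lie near portal tracts and sinusoids and form a small part of the immune cells. Type I interferon induces a broad antiviral programme in them through receptors on the cell surface.

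The libraries held 10000 barcodes each and 10756790 UMIs in flox/flox, 10067929 in wt/flox and 9744380 in wt/wt. The lowest barcodes had 636 UMIs in flox/flox, 721 in wt/flox and 727 in wt/wt. After the mitochondrial limit 29572 of 30000 barcodes were kept. The equal number of barcodes bears on every share, and how it was set is not given in the sources used here. Dendritic barcodes held 108404 UMIs in flox/flox, 65752 in wt/flox and 38303 in wt/wt. The median dendritic barcode had 1533.5 UMIs and 868.5 genes in flox/flox, 1610 UMIs and 886 genes in wt/flox, and 1700 UMIs and 934 genes in wt/wt. Other barcodes had medians of 930, 898 and 852 UMIs in the same order. Hepatocyte transcripts were found in all 130 dendritic barcodes, each with at least 3 UMIs over 14 markers. The 14 hepatocyte markers made up 4.20% of dendritic UMIs in flox/flox, 5.41% in wt/flox and 4.40% in wt/wt, against 11.3%, 12.2% and 11.7% in the other barcodes. Between libraries 1 dendritic barcode of flox/flox shared its sequence with a barcode elsewhere, and 0 were dendritic in both.

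Adar, the targeted gene, had too few UMIs in dendritic barcodes to check the labels there. It had 4 UMIs in flox/flox, 0 in wt/flox and 2 in wt/wt. In the other barcodes it stood at 41.1 CPM (the usual depth-scaled unit, taken over all UMIs of a class) in flox/flox, 20.8 CPM in wt/flox and 12.4 CPM in wt/wt, highest in the library labelled as deleted. The labels do not say which exons the loxP sites flank, and UMIs from the 3' end of a transcript need not lie in the deleted stretch. Genotype names here are therefore those of the labels, and each direction between libraries rests on them. Ifih1 had 0 UMIs in dendritic barcodes of all 3 libraries and 1 UMI over all other barcodes.

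Dendritic barcodes were most frequent in the library labelled flox/flox. They numbered 66 in flox/flox, 41 in wt/flox and 23 in wt/wt. As a share of kept barcodes these were 0.675% (exact binomial 95% interval 0.523 to 0.858) in flox/flox, 0.413% (0.297 to 0.560) in wt/flox and 0.233% (0.148 to 0.349) in wt/wt. The log2 ratio of shares was 1.54 (0.83 to 2.29) for flox/flox over wt/wt, a ratio of 2.90. It was 0.71 (0.12 to 1.31) for flox/flox over wt/flox and 0.83 (0.06 to 1.63) for wt/flox over wt/wt. Barcodes with Siglech (plasmacytoid) had the same order, with 157 in flox/flox, 85 in wt/flox and 51 in wt/wt. Those with Clec4f (Kupffer) numbered 296, 288 and 244, and those with Cd79a (B) 63, 89 and 71. Intervals here and below cover counting error only, and mouse, perfusion and loading cannot be told apart from genotype with 1 library each.

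**Figure D1:**
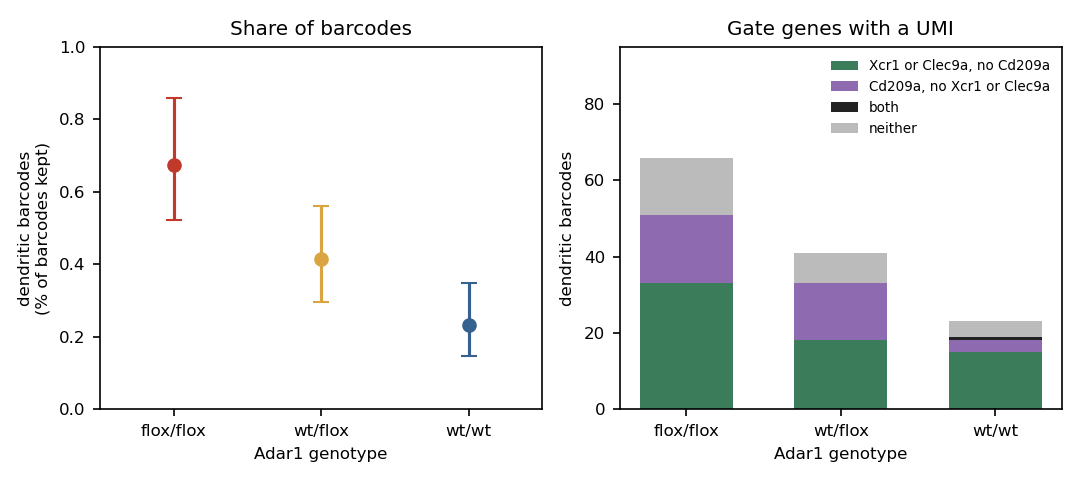
Left, dendritic barcodes as percent of the barcodes kept in each library, with exact binomial 95% intervals; right, the number of dendritic barcodes with UMIs of Xcr1 or Clec9a, of Cd209a, of both or of neither. The share was 0.675% in flox/flox, 0.413% in wt/flox and 0.233% in wt/wt, and the kinds with Xcr1 or Clec9a and with Cd209a overlapped in 1 barcode.

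Many barcodes sat at the lower limit of the gate genes, and few at that of the MHC class II genes. Exactly 1 gate UMI admitted 34 barcodes in flox/flox, 23 in wt/flox and 14 in wt/wt, while 32, 18 and 9 had 2 or more. The median barcode had 28.5 UMIs over the MHC class II genes and Cd74 in flox/flox, 23 in wt/flox and 36 in wt/wt. Exactly 2 such UMIs, the lowest number allowed, were found in 1 barcode of flox/flox, 6 of wt/flox and 1 of wt/wt. The MHC class II limit removed 32 barcodes in flox/flox, 56 in wt/flox and 41 in wt/wt that met the other limits. Of these, 2, 1 and 1 had exactly 1 such UMI, and the rest had none. The share ratios between libraries thus depend on this limit, which removed the largest number in wt/flox. An excluded gene removed 48 barcodes in flox/flox, 27 in wt/flox and 20 in wt/wt that met the other limits.

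The label was checked against its 6 markers, of which Cst3 alone was not used to choose barcodes. Cst3 encodes cystatin C, an inhibitor of cysteine proteases that dendritic cells make in large amounts. It had a UMI in 57 of 66 barcodes in flox/flox, 35 of 41 in wt/flox and 21 of 23 in wt/wt. Over all libraries that was 86.9% of dendritic barcodes (79.9 to 92.2) against 15.6% of the other barcodes (15.2 to 16.1), and 71.5% against 9.85% after each barcode was thinned to 600 UMIs. Its level was 6144 CPM in flox/flox, 4441 CPM in wt/flox and 8929 CPM in wt/wt, against 219 CPM, 225 CPM and 178 CPM in the other barcodes. In barcodes with Clec4f (Kupffer) it was 780.3 CPM, in those with Siglech (plasmacytoid) 760.5 CPM and in those with Cd79a (B) 248 CPM.

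Of the markers that chose the barcodes, Clec9a, a receptor for dead cells, had a UMI in 39.2% of dendritic barcodes and Cd209a, a C-type lectin, in 28.5%. Xcr1, the receptor for the chemokine Xcl1, had a UMI in 23.8% and Flt3, the receptor for the growth factor that expands dendritic cells, in 23.1%. H2-Ab1, a chain of MHC class II, had a UMI in 88.5%, against 3.88% of the other barcodes. The transcription factor Zbtb46 was seen in 13.8% and the integrin Itgae in 9.23%. No gate gene was seen in more than 0.564% of the other barcodes.

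Genes that the rule did not use led the same way. Of the 1691 genes with at least 20 UMIs in dendritic barcodes and outside the rule, 19.3% were at least 2-fold higher there than in the other barcodes of all 3 libraries. All 15 measured members of the core dendritic list, 11 of 12 of the cDC1 list and 7 of 8 of the list of further MHC class II genes were among them. Here and below "measured" means at least 20 UMIs over the 3 libraries in dendritic barcodes, a limit that a gene can pass through the group where it is high.

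Wdfy4, which cDC1 need to present engulfed antigen, was 44.4 to 133 times its level in the other barcodes of the same library. It stood at 332 CPM in flox/flox, 228 CPM in wt/flox and 470 CPM in wt/wt. Naaa, an acid amidase of lysosomes, was 38.9 to 161 times higher, with 341 CPM in flox/flox, 259 CPM in wt/flox and 653 CPM in wt/wt. Batf3, the factor that keeps the cDC1 fate, was 35.2 to 107 times higher on 25 UMIs in all. In Clec4f, Siglech and Cd79a barcodes these genes reached at most 52.8 CPM, the level of Wdfy4 in Cd79a barcodes.

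The genes that control and load MHC class II were among the leaders. Ciita, the master regulator of class II transcription, was 35.1 to 91.1 times higher, at 212 CPM in flox/flox, 198 CPM in wt/flox and 209 CPM in wt/wt. H2-DMa, a chain of the chaperone that exchanges the invariant chain peptide for antigen, was 22.96 to 29.6 times higher, at 443 CPM in flox/flox, 395 CPM in wt/flox and 391.6 CPM in wt/wt. March1, the ligase that marks surface class II for removal, was 13.3 to 20.5 times higher. Napsa, an aspartic protease, and Ppt1, a lysosomal thioesterase, also belonged to the 25 leading genes.

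Other leading genes encode surface receptors and transcription factors. Slamf7, an adhesion receptor, was 33.9 to 96.4 times higher, and Itgax, the CD11c integrin by which dendritic cells are usually sorted, 28.6 to 100 times higher on 20 UMIs. Ccr2, a chemokine receptor of monocytes and cDC2, was 14.4 to 34.8 times higher. Btla and Cd24a, 18.9 times higher at the least, were at 106 CPM and 150 CPM in Cd79a barcodes as well. Irf8 was 13.8 to 36.6 times higher but not highest in dendritic barcodes: it stood at 791 CPM in them and 1752 CPM in Siglech barcodes.

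**Figure D2:**
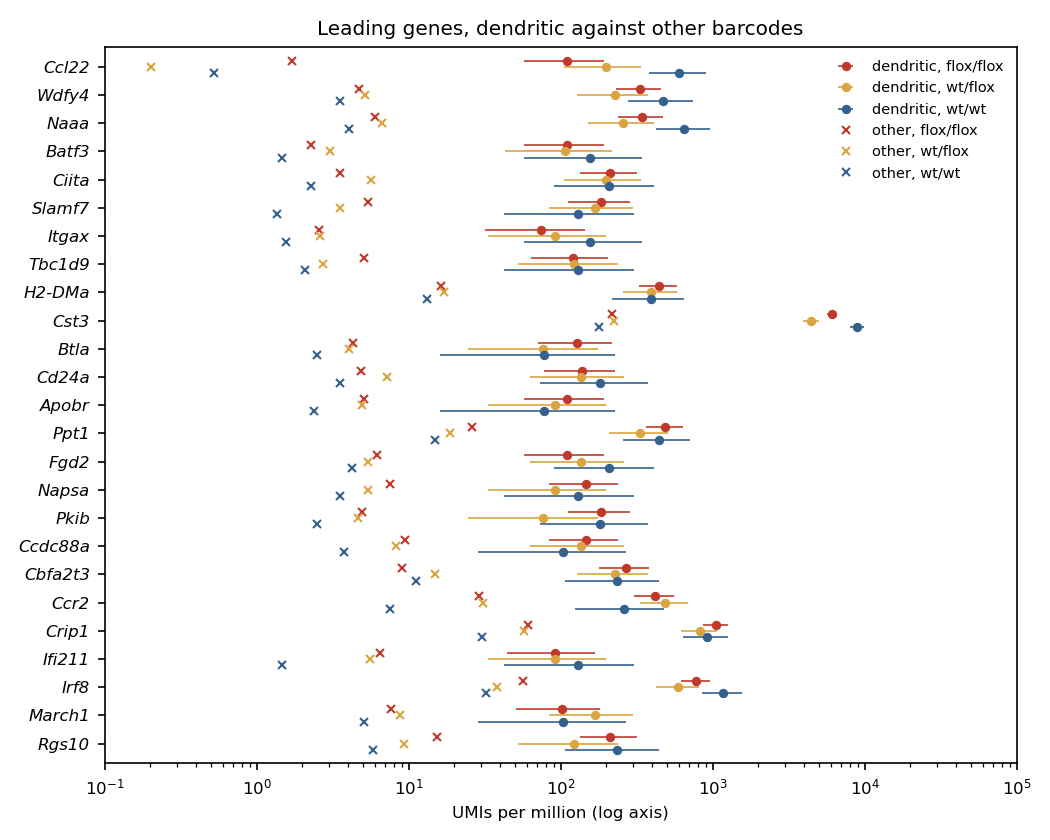
The 25 genes outside the rule with the highest smallest ratio over the other barcodes, in CPM on a log axis; dots with exact Poisson 95% intervals are dendritic barcodes and crosses all other barcodes of the same library. Dots lie to the right of the crosses for all 25 genes, with Wdfy4 at 332 CPM against 4.68 CPM in flox/flox.

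Ccl22, a chemokine that draws regulatory T cells, headed the leading genes yet came from few barcodes. It had 12 UMIs in 3 barcodes of flox/flox, 13 in 2 of wt/flox and 23 in 3 of wt/wt. The highest barcode alone held 66.7% of these UMIs in flox/flox, 92.3% in wt/flox and 78.3% in wt/wt. The maturation genes Ccr7 and Fscn1 were near 0, with 1 and 0 UMIs in flox/flox, 0 and 0 in wt/flox, and 5 and 2 in wt/wt. In wt/wt all 5 and all 2 came from 1 barcode each.

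Ifi211, of the family of interferon-induced DNA-binding proteins, was the leading gene whose promoter held an interferon response motif. It was 14.2 to 89.5 times higher in dendritic barcodes, at 92.3 CPM in flox/flox, 91.3 CPM in wt/flox and 131 CPM in wt/wt. The motif searched was the core of the interferon-stimulated response element, GAAA and again GAAA with any pair of bases between them, on both strands. It lay in the promoter window of 1 of 21 matched leading genes and of 3.99% of 27025 genes. The ETS-IRF composite, bound by Irf8 and its partners and spelled GGAA and GAAA with any pair of bases between them, was searched in the same way and lay in 0 of the 21 and in 3.16% of all genes. The window of 300 bases around the start is shown from RefSeq (GRCm38.p6, chr1:173912997-173913296, minus strand), with the motif at position -37 from the start in capitals. Family members of Ifi211 have closely similar sequences, which can split or lose their UMIs.
Ifi211: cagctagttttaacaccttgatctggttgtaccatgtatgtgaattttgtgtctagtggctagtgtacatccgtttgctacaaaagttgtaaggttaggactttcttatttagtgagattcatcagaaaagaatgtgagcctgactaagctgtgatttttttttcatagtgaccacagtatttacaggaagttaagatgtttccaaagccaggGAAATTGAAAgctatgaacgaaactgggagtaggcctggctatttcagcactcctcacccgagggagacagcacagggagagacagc

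Barcodes were divided by Xcr1 or Clec9a and by Cd209a. These are gate genes, and the 34, 23 and 14 barcodes of flox/flox, wt/flox and wt/wt with exactly 1 gate UMI could not hold both, so the rule fixed much of the separation. Xcr1 or Clec9a without Cd209a was found in 33 barcodes of flox/flox, 18 of wt/flox and 15 of wt/wt, or 66 of 130 in all. Cd209a with neither was found in 18 barcodes of flox/flox, 15 of wt/flox and 3 of wt/wt, or 36 in all. The combination occurred in 1 barcode, in wt/wt, and 27 barcodes had none of the 3 genes. The share with Xcr1 or Clec9a and no Cd209a was 50.0% (37.4 to 62.6) in flox/flox, 43.9% (28.5 to 60.3) in wt/flox and 65.2% (42.7 to 83.6) in wt/wt. The intervals of all 3 libraries overlapped. Shares with Cd209a alone were 27.3% (17.0 to 39.6) in flox/flox, 36.6% (22.1 to 53.1) in wt/flox and 13.04% (2.78 to 33.6) in wt/wt.

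Other genes of the cDC1 programme followed Xcr1 and Clec9a in the summed sets, but not in every barcode. For example, 1 flox/flox barcode with a Clec9a UMI had 0 cDC1 and 12 cDC2 list UMIs. Another flox/flox barcode, with none of the 3 genes that divide the sets, had 14 and 0. Of 1308 genes measured in the 2 sets, 8.87% were at least 2-fold higher in Xcr1 or Clec9a barcodes and 6.27% in Cd209a barcodes. Outside the gate, 10 of 11 measured cDC1 list members were higher in the first set and 0 in the second. The summed list stood at 4870 CPM in Xcr1 or Clec9a barcodes and 821 CPM in Cd209a barcodes, a log2 ratio of 2.57 (2.12 to 3.05). The sets were made from these same cells, so the difference is a description and not a test.

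Irf8 had 135 UMIs in Xcr1 or Clec9a barcodes and 4 in Cd209a barcodes, a log2 ratio of 3.89 (2.50 to 5.79). In all 3 libraries it was higher in the first set, and 51 of its 66 barcodes had a UMI, against 2 of 36 in the second. Ppt1 had 78 against 3 UMIs and Wdfy4 52 against 4, and Naaa 56 against 9. Batf3 had 20 against 1 UMI and Tlr3, the endosomal sensor of double-stranded RNA, 19 against 1. Rab7b, Cadm1, Btla and Gcsam had 22, 16, 18 and 15 UMIs in the first set and 0 in the second. For Rab7b the log2 ratio was 1.69 with the second set raised to the floor of 3 UMIs, and its interval began at 1.27.

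Cst3 also differed between the sets, with 8512 CPM in Xcr1 or Clec9a barcodes and 1413 CPM in Cd209a barcodes, a log2 ratio of 2.59 (2.25 to 2.95). Id2, a repressor that dendritic cells need, stood at 1102 CPM and 363 CPM in the same order. The core dendritic list, which holds Cst3 and Id2, stood at 34870 CPM and 16591 CPM, log2 ratio 1.07 (0.97 to 1.18). Of its 14 measured members, 5 were at least 2-fold higher in the first set, against 8.87% of all genes. In the second set 0 were, against 6.27%. Ciita did not separate the sets, at 177 CPM and 248 CPM, log2 ratio -0.49 (-1.56 to 0.63). The list of further MHC class II genes was at 2119 CPM and 2291 CPM, log2 ratio -0.11 (-0.43 to 0.21).

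The cDC2 and monocyte lists had higher sums in Cd209a barcodes. Of their measured members, 1 of 3 cDC2 genes and 2 of 7 monocyte markers were at least 2-fold higher there, against 6.27% of all genes, and 0 were at least 2-fold higher in Xcr1 or Clec9a barcodes. The summed cDC2 list without Cd209a stood at 1135 CPM in Xcr1 or Clec9a barcodes and 3666 CPM in Cd209a barcodes, log2 ratio -1.69 (-2.02 to -1.37). S100a4, a calcium-binding protein of motile cells, had 14 UMIs in the first set and 49 in the second, log2 ratio -2.99 (-3.96 to -2.11). S100a4 belongs to both lists, and was the 1 cDC2 gene and 1 of the 2 monocyte markers counted above. In Cd209a barcodes S100a4 and Fcer1g held 49 and 53 of the 192 UMIs of the cDC2 list. Zeb2, a factor that favours cDC2 and monocytes, had 10 and 19 UMIs, log2 ratio -2.11 (-3.38 to -0.93), and Ms4a6c 14 and 24. Among cDC2 list members with too few UMIs to be measured, Klf4 had 2 and 13 UMIs and the integrin gene Itgam 1 and 10. Others of these ran the opposite way, such as Clec12a with 12 and 1 UMIs and Cx3cr1 with 9 and 2. The log2 intervals of Clec12a and Cx3cr1 held 0. The 15 monocyte markers together stood at 2187 CPM and 3914 CPM, log2 ratio -0.84 (-1.11 to -0.57). Sirpa, the usual surface marker of cDC2, had 3 UMIs in each set, too few to compare.

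Transcripts of other cells lay unevenly over the sets. The 14 Kupffer markers together were at 1388 CPM in Xcr1 or Clec9a barcodes and 382 CPM in Cd209a barcodes, log2 ratio 1.86 (1.19 to 2.61). C1qb had 39 UMIs in 10 of the 66 barcodes and 0 UMIs in the 36, while Clec4f was at 0 in both by the rule. Over all 130 barcodes, 17 had at least 3 UMIs of Kupffer markers, 78 of monocyte markers, 16 of plasmacytoid, 11 of T or NK, 7 of B, 7 of neutrophil and 7 of endothelial markers. Droplets with 2 cells were not removed, and their part in these values was not tested. Without barcodes that held macrophage transcripts (C1qa, C1qb, C1qc, Vsig4, Cd5l or Marco) the cDC1 list ratio was 3.01 and the cDC2 list ratio -2.57.

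**Figure D3:**
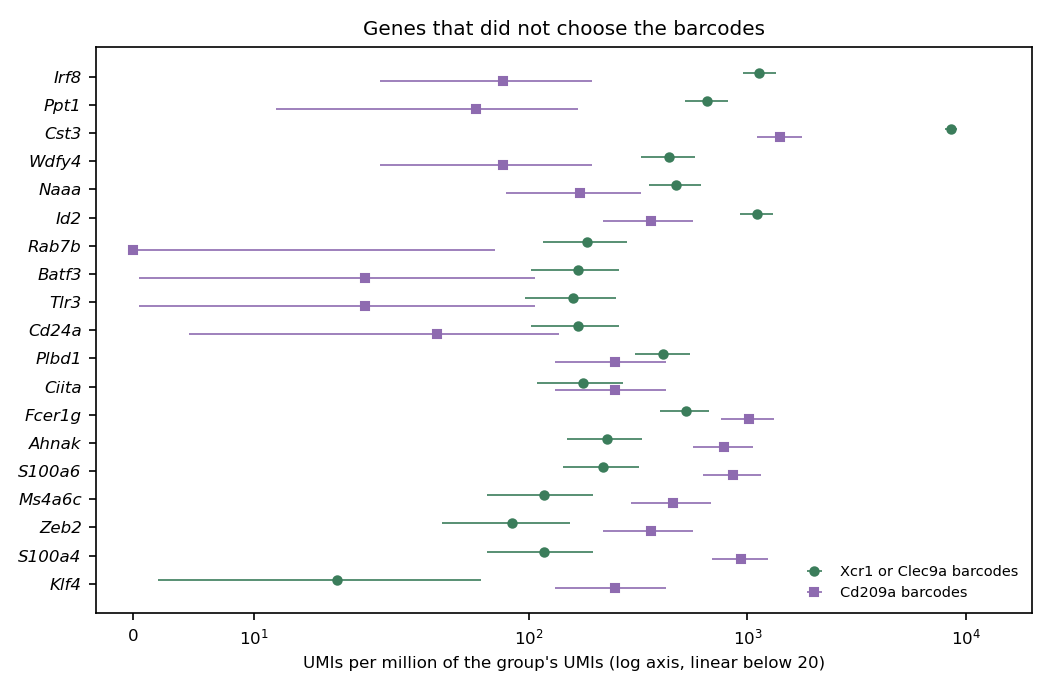
CPM, on a log axis that is linear below 20, of 19 genes in the 66 barcodes with Xcr1 or Clec9a (circles) and the 36 with Cd209a (squares), with exact Poisson 95% intervals. Irf8 to Cd24a, cDC1 list genes apart from Cst3 and Id2 of the core dendritic list, are higher in circles. The log2 intervals of Plbd1 and Ciita hold 0, and Fcer1g to Klf4 are higher in squares.

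The type I interferon list was highest in the library labelled flox/flox. Its 55 genes in the file summed to 817 UMIs in flox/flox, 301 in wt/flox and 180 in wt/wt. In CPM these were 7537 (Poisson 95% interval 7029 to 8072) in flox/flox, 4578 (4075 to 5125) in wt/flox and 4699 (4038 to 5438) in wt/wt. The library labelled flox/flox exceeded wt/wt by a log2 ratio of 0.68 (0.45 to 0.92) and wt/flox by 0.72 (0.53 to 0.91). For wt/flox over wt/wt it was -0.04 (-0.31 to 0.24). The median barcode had 0.668% of its UMIs from the list in flox/flox (range 0.166% to 2.22%), 0.400% in wt/flox (0.0736% to 1.03%) and 0.389% in wt/wt (0.0499% to 1.22%), so the ranges overlapped and every barcode had a UMI of the list.

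Over wt/wt, 8 of the 16 measured members were at least 2-fold higher in flox/flox, against 7.65% of all 1699 measured genes, and 0 were lower, against 6.12%. Over wt/flox, 9 of 16 were higher, against 8.12% of genes, and 0 lower, against 6.83%. The median log2 ratio was 1.00 and 1.13 in these comparisons, where all measured genes had 0.02 and -0.01. With a minimum of 10 UMIs per gene the medians were 0.35 and 0.86, and with none 0.08 and 0.69. Members reached 20 UMIs mostly through flox/flox, so these counts describe the members measured and support nothing further. Between wt/flox and wt/wt 1 of 14 was higher, against 8.19%, and 0 lower, against 8.6%. Of all 55 genes, 1 had 0 UMIs in flox/flox, 13 in wt/flox and 20 in wt/wt, at unequal depths.

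Ly6e, a membrane protein that hinders virus entry, led the list and differed little between libraries. It had 139 UMIs or 1282 CPM in flox/flox, 68 UMIs or 1034 CPM in wt/flox and 46 UMIs or 1201 CPM in wt/wt, log2 ratio 0.09 (-0.40 to 0.61) for flox/flox over wt/wt. Ifitm3, which blocks fusion of viruses in endosomes, had 141, 53 and 36 UMIs, or 1301, 806 and 940 CPM in the same order. The log2 ratio of flox/flox was 0.47 (-0.07 to 1.04) against wt/wt and 0.69 (0.23 to 1.17) against wt/flox. Bst2, the tether of budding virions, was not higher in flox/flox, with 323 CPM in flox/flox, 487 CPM in wt/flox and 391.6 CPM in wt/wt.

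Ly6a, a surface protein also known as Sca-1, had 30 UMIs in flox/flox, 11 in wt/flox and 3 in wt/wt, with an interval of 0.14 to 4.18 for flox/flox over wt/wt. Ifi27l2a, a small interferon-induced protein, had 36, 9 and 6 UMIs. Slfn5, of the Schlafen family, had 27, 7 and 4 UMIs, and Ifi203, of the same family as Ifi211, 26, 7 and 4. Among transcription factor genes of the pathway, Irf9 had 18, 5 and 2 UMIs and Irf7 16, 5 and 3. Apart from Ly6a each of these genes had a counting interval that held 0 for flox/flox over wt/wt. The list sum without its 4 highest members, Ly6e, Ifitm3, Bst2 and Ifi27l2a, was higher in flox/flox by a log2 ratio of 1.10 (0.75 to 1.46) against wt/wt, and 1.02 (0.75 to 1.31) against wt/flox.

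Promoter windows of the list often held the interferon response motif. It was found in 21 of 42 matched list genes and 6 of 11 matched members that were measured, against 3.99% of all genes. The windows shown are those of a gene with a high level and of a gene with 26, 7 and 4 UMIs, both on the minus strand of GRCm38.p6 in RefSeq, with matches in capitals. Ifi203 lies at chr1:173942443-173942742 and had its match at position -35 from the start. Ifitm3 lies at chr7:141010695-141010994 and had matches at positions 3 and 20.
Ifi203: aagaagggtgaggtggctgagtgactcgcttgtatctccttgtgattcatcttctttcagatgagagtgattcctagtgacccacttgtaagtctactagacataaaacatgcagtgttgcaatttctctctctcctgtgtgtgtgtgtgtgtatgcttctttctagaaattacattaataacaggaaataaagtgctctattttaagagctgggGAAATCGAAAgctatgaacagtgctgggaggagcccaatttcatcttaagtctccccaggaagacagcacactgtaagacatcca
Ifitm3: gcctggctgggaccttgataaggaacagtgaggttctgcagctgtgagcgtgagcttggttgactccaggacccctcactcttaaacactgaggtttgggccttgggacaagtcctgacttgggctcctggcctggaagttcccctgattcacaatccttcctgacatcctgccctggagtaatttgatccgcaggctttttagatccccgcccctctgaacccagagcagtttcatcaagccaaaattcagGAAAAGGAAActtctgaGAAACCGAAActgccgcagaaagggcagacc

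The interferon list had its highest value in flox/flox in both sets of dendritic barcodes. Among Xcr1 or Clec9a barcodes it stood at 7844 CPM in flox/flox, 4823 CPM in wt/flox and 4220 CPM in wt/wt. Among Cd209a barcodes it stood at 7946 CPM in flox/flox, 4232 CPM in wt/flox and 6620 CPM in wt/wt, the last on 33 UMIs from 3 barcodes. There the log2 ratio of flox/flox over wt/wt was 0.26 (-0.27 to 0.84), and over wt/flox 0.91 (0.55 to 1.28). Over all libraries the sets had equal levels, 6224 CPM and 6262 CPM, log2 ratio -0.01 (-0.20 to 0.18).

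Other barcodes of the same livers also had the list highest in flox/flox. It was 5153 CPM in flox/flox, 2735 CPM in wt/flox and 1899 CPM in wt/wt over all barcodes that are not dendritic, a log2 ratio of 1.44 (1.42 to 1.46) for flox/flox over wt/wt. Clec4f barcodes had 10627, 6734 and 4785 CPM and a ratio of 1.15 (1.06 to 1.24). Siglech barcodes had 8837, 5961 and 6330 CPM and a ratio of 0.48 (0.33 to 0.64), and Cd79a barcodes 6339, 3729 and 3386 CPM and a ratio of 0.90 (0.68 to 1.13). For wt/flox over wt/wt the ratio was 0.53 (0.50 to 0.55) in the other barcodes, against -0.04 (-0.31 to 0.24) in dendritic ones. In that comparison it was 0.49 (0.40 to 0.59) in Clec4f barcodes, -0.09 (-0.27 to 0.09) in Siglech barcodes and 0.14 (-0.10 to 0.38) in Cd79a barcodes. Whether these ratios differ between cell classes was not tested with replicates.

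Transcripts of other cells in a droplet add to these sums. When the other barcodes' level, scaled by the hepatocyte marker ratio, was subtracted, the list stood at 5623 CPM in flox/flox, 3369 CPM in wt/flox and 3986 CPM in wt/wt. The log2 ratio was then 0.50 for flox/flox over wt/wt and 0.74 for flox/flox over wt/flox.

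**Figure D4:**
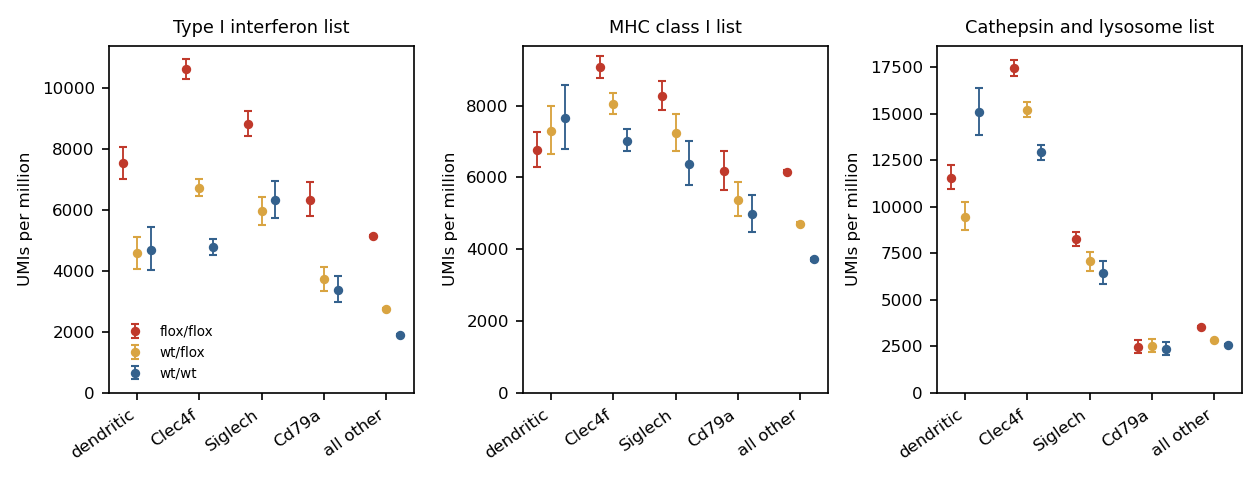
Summed CPM, with exact Poisson 95% intervals, of the type I interferon, MHC class I and cathepsin and lysosome lists in dendritic barcodes, in Clec4f (Kupffer), Siglech (plasmacytoid) and Cd79a (B) barcodes and in all barcodes that are not dendritic. Dendritic barcodes had 7537 CPM of the interferon list in flox/flox, 4578 CPM in wt/flox and 4699 CPM in wt/wt, while their lysosome list was highest in wt/wt, at 15090 CPM.

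The MHC class I list, which holds the class I chains, B2m and the genes that cut and load peptides, was not higher in dendritic barcodes of flox/flox. Its 23 genes stood at 6762 CPM (6281 to 7269) in flox/flox, 7300 CPM (6662 to 7983) in wt/flox and 7650 CPM (6799 to 8577) in wt/wt. The log2 ratio of flox/flox was -0.18 (-0.38 to 0.02) against wt/wt, and -0.11 (-0.28 to 0.06) against wt/flox. Of 13 measured members 0 were 2-fold higher and 0 lower in any comparison. Over all measured genes 7.65% were higher and 6.12% lower for flox/flox over wt/wt, so a count of 0 in 13 is near the background. The median log2 ratio was -0.44 over wt/wt, where all genes had 0.02. In the other barcodes the list was 6160 CPM in flox/flox, 4713 CPM in wt/flox and 3721 CPM in wt/wt, log2 ratio 0.73 (0.71 to 0.75) for flox/flox over wt/wt. In Clec4f barcodes that ratio was 0.37 (0.29 to 0.45) and in Siglech barcodes 0.38 (0.22 to 0.53).

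B2m, the light chain of class I, had 2168 CPM in flox/flox, 1886 CPM in wt/flox and 1671 CPM in wt/wt, log2 ratio 0.38 (-0.03 to 0.80) over wt/wt. H2-K1 and H2-D1 encode the classical heavy chains. H2-K1 had 969, 973 and 1175 CPM and H2-D1 710, 1019 and 1018 CPM in flox/flox, wt/flox and wt/wt. For H2-D1 the log2 ratio of flox/flox over wt/flox was -0.52 (-1.01 to -0.03), while the intervals of H2-K1 held 0 in both comparisons. Psme1, a subunit of the proteasome activator, had 415, 563 and 731 CPM in the same order, log2 ratio -0.82 (-1.53 to -0.08) over wt/wt. H2-K1 and H2-D1 share reads with each other and with other class I genes, so their single levels are uncertain.

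The cathepsin and lysosome list was highest in wt/wt. Its 21 genes stood at 11568 CPM (10936 to 12226) in flox/flox, 9460 CPM (8731 to 10233) in wt/flox and 15090 CPM (13885 to 16372) in wt/wt. The log2 ratio was -0.38 (-0.53 to -0.24) for flox/flox over wt/wt and -0.67 (-0.84 to -0.51) for wt/flox over wt/wt, whereas flox/flox over wt/flox gave 0.29 (0.15 to 0.43). Of 14 measured members, 1 was 2-fold higher and 0 lower in flox/flox over wt/wt, near the 7.65% and 6.12% of all genes, with a median of -0.35. Cst3 carried more of it than any other gene. It made up 6144 of the 11568 CPM in flox/flox, 4441 of 9460 in wt/flox and 8929 of 15090 in wt/wt. In the other barcodes it made up 219 of 3533, 225 of 2818 and 178 of 2590 CPM in the same order. Without Cst3, Psap, Ctss and Ctsb the rest differed by -0.17 (-0.49 to 0.16) on the log2 scale for flox/flox over wt/wt.

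Cst3 was lower in flox/flox than in wt/wt by a log2 ratio of -0.54 (-0.73 to -0.35). Since Cst3 was several times higher in Xcr1 or Clec9a barcodes, and these formed 50.0%, 43.9% and 65.2% of dendritic barcodes in flox/flox, wt/flox and wt/wt, the makeup of the sets moved with it. Its part in the difference was not tested. Within Xcr1 or Clec9a barcodes Cst3 was still highest in wt/wt, at 7495 CPM in flox/flox, 7722 CPM in wt/flox and 11885 CPM in wt/wt. The list there stood at 13614 CPM in flox/flox, 13735 CPM in wt/flox and 17150 CPM in wt/wt. Ctss, the protease that trims the invariant chain, ran against its list, with 683 CPM in flox/flox, 335 CPM in wt/flox and 366 CPM in wt/wt. That is a log2 ratio of 0.90 (0.06 to 1.84) against wt/wt, and 1.03 (0.33 to 1.79) against wt/flox. In the other barcodes Ctss was also highest in flox/flox, by 1.43 (1.28 to 1.59) against wt/wt and 0.52 (0.40 to 0.65) against wt/flox.

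The cDC1 list stood at 3478 CPM in flox/flox, 2905 CPM in wt/flox and 4725 CPM in wt/wt, log2 ratio -0.44 (-0.70 to -0.18) for flox/flox over wt/wt. The makeup of the sets moved with this list too, and its part was not tested. Within Xcr1 or Clec9a barcodes the cDC1 list stood at 4643 CPM in flox/flox, 4639 CPM in wt/flox and 5691 CPM in wt/wt. Over all dendritic barcodes Irf8 stood at 775 CPM in flox/flox, 593 CPM in wt/flox and 1175 CPM in wt/wt. The list of further MHC class II genes had 2389 CPM in flox/flox, 1916 CPM in wt/flox and 1906 CPM in wt/wt, with intervals of the log2 ratio of -0.05 to 0.72 for flox/flox over wt/wt and 0.01 to 0.64 for flox/flox over wt/flox. Ctss, given above with the lysosome list, is also in this list and made up 683, 335 and 366 CPM of these sums. The list is thus not a result apart from Ctss.

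Cell cycle transcripts were present in all 3 libraries. The 19 genes in the file stood at 3238 CPM in flox/flox, 3376 CPM in wt/flox and 2324 CPM in wt/wt, log2 ratio 0.48 (0.14 to 0.83) for flox/flox over wt/wt and 0.54 (0.18 to 0.91) for wt/flox over wt/wt. The shift was not particular to dendritic barcodes. In the other barcodes these 2 ratios were 0.34 and 0.35, and in Clec4f barcodes 0.45 and 0.17. They were 0.32 and 0.83 in Siglech barcodes, and 1.42 and 0.07 in Cd79a barcodes. Cell cycle UMIs of dendritic barcodes were concentrated: 14 of 66 barcodes had at least 5 such UMIs in flox/flox, 10 of 41 in wt/flox and 5 of 23 in wt/wt. Mki67, a protein of dividing nuclei, had 17 UMIs in 6 barcodes of flox/flox, 4 in 4 of wt/flox and 0 in wt/wt, and Top2a 18, 17 and 6. The list was higher in Xcr1 or Clec9a barcodes, at 3524 CPM, than in Cd209a barcodes, at 1756 CPM.

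Chemokine genes came from few barcodes, and their direction between libraries rested on them. The 25 genes of the chemokine and cytokine list stood at 1024 CPM in flox/flox, 1460 CPM in wt/flox and 1906 CPM in wt/wt, log2 ratio -0.90 (-1.34 to -0.45) for flox/flox over wt/wt. Without barcodes that held macrophage transcripts the ratio was 0.22, and with at least 2 gate UMIs per barcode 1.53. Ccl17, which draws T cells that carry Ccr4, had 22 UMIs in flox/flox and 0 in wt/flox and wt/wt. They came from 4 barcodes, and 15 from the highest alone. Cxcl9, an interferon gamma target, had 3 UMIs in flox/flox, 19 in wt/flox and 10 in wt/wt. Ccl5 had 1, 19 and 10 UMIs in the same order, in 1, 4 and 2 barcodes.

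The rule for single genes named 6 that were higher in flox/flox than in both other libraries, and 9 that were lower. Besides Ctss and Ccl17 the higher ones were Sla, an adaptor that dampens receptor signals, and Igkc, Igha and Jchain, genes of antibody-secreting cells. Sla was spread widely, with 39 UMIs in 28 barcodes of flox/flox, 7 in 7 of wt/flox and 2 in 2 of wt/wt. The log2 interval was 0.83 to 5.88 against wt/wt, and 0.58 to 3.16 against wt/flox. Sla was also higher in flox/flox in the other barcodes. Its log2 ratio there was 1.14 (0.80 to 1.49) against wt/wt and 0.80 (0.49 to 1.12) against wt/flox. The antibody genes were not spread: 1 barcode held 453 of 454 Igkc, 94 of 94 Igha and 110 of 111 Jchain UMIs of flox/flox. In wt/wt 1 barcode held 35 of 36 Igkc UMIs.

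**Figure D5:**
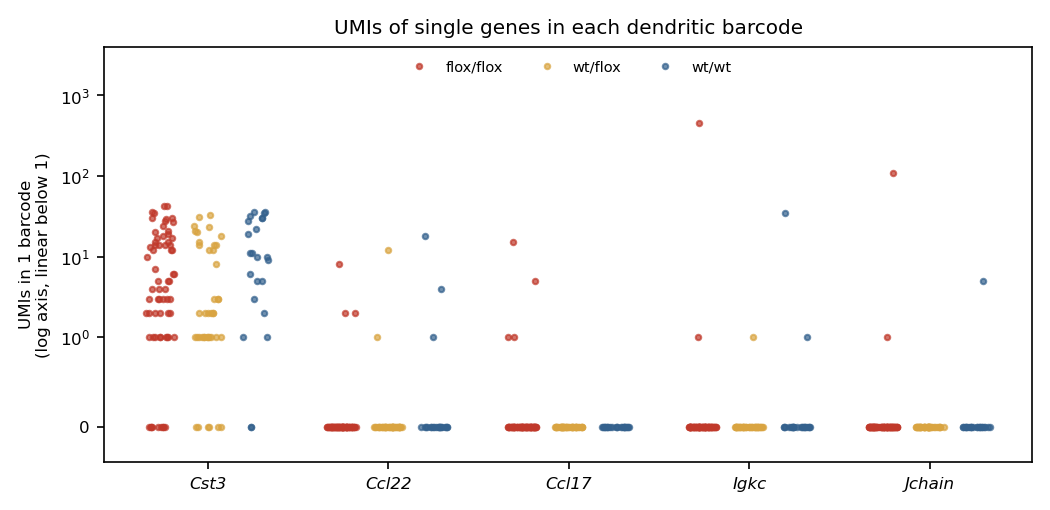
UMIs of Cst3, Ccl22, Ccl17, Igkc and Jchain in each dendritic barcode, 66 in flox/flox, 41 in wt/flox and 23 in wt/wt, on a log axis that is linear below 1. Cst3 is seen in 57, 35 and 21 barcodes, while 1 barcode of flox/flox holds 453 Igkc UMIs.

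The genes lower in flox/flox were Cxcl9, Ccl5, Dusp1, Ece1, Prkcd, S100a8, Lyz2, Rplp0 and Actb. Lyz2, the lysozyme of monocytes and macrophages, had 507 CPM in flox/flox, 897 CPM in wt/flox and 1070 CPM in wt/wt, log2 ratio -1.08 (-1.69 to -0.46) against wt/wt, and -0.82 (-1.38 to -0.27) against wt/flox. The neutrophil gene S100a8 had 11 UMIs in 2 barcodes of flox/flox, 25 in 4 of wt/flox and 12 in 1 of wt/wt. Dusp1, an early response phosphatase, had 5, 13 and 11 UMIs in the same order. Prkcd, a kinase, had 6, 16 and 8 UMIs, and Ece1, an endothelin-converting enzyme, 4, 11 and 6. Actb had 6273 CPM in flox/flox, 7178 CPM in wt/flox and 9608 CPM in wt/wt. The ribosomal protein gene Rplp0 had 1633, 2114 and 2532 CPM. In the other barcodes Dusp1, S100a8 and Rplp0 were lower in flox/flox as well. Their log2 ratios there were -0.25, -0.43 and -0.39 against wt/wt, and -0.70, -1.47 and -0.39 against wt/flox. The rest of these genes were not lower there against both libraries.

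Between wt/flox and wt/wt the genes named here other than Malat1 had at most 50 UMIs in either library. Son, a splicing factor, had 37 UMIs in wt/flox and 8 in wt/wt, log2 ratio 1.43 (0.30 to 2.74), and Pabpc1, which binds poly(A) tails, 50 and 11, log2 ratio 1.40 (0.44 to 2.50). Malat1, a nuclear RNA, had 16456 CPM in wt/flox and 14072 CPM in wt/wt. Itgal, the LFA-1 integrin chain, had 14 UMIs in wt/flox and 0 in wt/wt, and Fam49b had 22 and 4. Npc2, a cholesterol carrier of lysosomes, had 10 UMIs in wt/flox and 21 in wt/wt, log2 ratio -1.85 (-3.10 to -0.70). Irf5, a factor of inflammatory cytokine genes, had 3 and 9 UMIs, and Havcr2, which encodes TIM-3 on cDC1, 2 and 7.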

How the data were processed

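Single-cell RNA from 3 liver libraries, 1 per Adar1 genotype, was analysed. The deposited matrix holds counts of UMIs per gene and barcode, made by the authors with Cell Ranger 6.1.1, per the file headers. Seurat and the mm10 build are named in the submitters' processing notes. Depth is given as UMIs per library and class. The barcode suffix gives the library, and each barcode was assigned by the rule in the opening. No doublet caller was run, and 1 dendritic barcode held UMIs of Cd209a together with Xcr1 or Clec9a.

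UMIs were summed over barcodes and scaled to CPM of the class. Intervals are 95%: exact Clopper-Pearson for shares, exact Poisson for CPM, and a conditional binomial interval for log2 ratios. They cover counting error only. With 1 library per genotype no test was run. In log2 ratios of single genes a count under 3 UMIs, whether 0, 1 or 2, was raised to a floor of 3 UMIs, so such a ratio is a floored value and not the ratio of the counts. Genes with at least 20 UMIs in dendritic barcodes were measured, and at least 2-fold was counted as a difference. Detection of marker genes was also given after thinning to 600 UMIs, without shallower barcodes. The expected contribution of free RNA was the CPM of the other barcodes times the hepatocyte marker ratio.

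Genes named were the 25 with the highest smallest ratio over other barcodes. Between libraries up to 10 per direction were named, whose interval left out 0 and whose level allowed for free RNA. Between flox/flox and both other libraries 10 genes were higher and 23 lower by interval, of which 6 and 9 met the free RNA limit. Between wt/flox and wt/wt these were 58 and 51, and 10 and 32. The genes searched were at most the 1699 measured genes with a ratio for flox/flox and the 1686 for wt/flox over wt/wt. Some intervals among so many leave out 0 by counting error alone. The values of 1 interferon list member are not reported here, and it is kept in the list sums. Members and lists were chosen with earlier results of these data known. Ratios were checked on simulated counts. Alternatives were stricter gates, depth and mitochondrial limits, removal of barcodes with transcripts of other cells, and other minimums and folds. Computation used Python 3.11.15 with pandas 2.3.3, numpy 2.4.6 and scipy 1.17.1, and figures matplotlib 3.10.9.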

Additional observations from a re-analysis of the deposited data

Results flagged for a closer look

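Several values moved one way in dendritic barcodes and the opposite way in the other barcodes of the same libraries, with counting intervals off 0 on both sides. With 1 library per genotype the difference was not tested, and its cause was not tested. Values are log2 ratios, dendritic barcodes first.

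For flox/flox over wt/wt, Ccl5 had -3.24 against 0.61, with its 1 dendritic UMI in flox/flox raised to the floor of 3 UMIs. Prkcd had -1.92 against 0.69, Lyz2 -1.08 against 1.04 and Actb -0.62 against 0.15. The cathepsin and lysosome list had -0.38 against 0.45. In wt/wt Cst3 made up 8929 of its 15090 CPM in dendritic barcodes and 178 of 2590 CPM in the others. The sums compared thus rest on different genes.

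For flox/flox over wt/flox, Ccl5, again at the floor, had -3.38 against 0.83 and Ece1 -2.18 against 0.24. Son had -0.84 against 0.36 and Pabpc1 -0.64 against 0.24.

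For wt/flox over wt/wt, Igkc had -4.36 against 1.43 and Jchain -1.52 against 1.48, both decided by 1 barcode of wt/wt, with the 1 and 0 UMIs of wt/flox raised to the floor of 3 UMIs. Actb had -0.42 against 0.17. Sh3bp1, App and Plekho1, each with 2 dendritic UMIs in wt/flox raised to the same floor, had -2.52 against 0.68, -2.36 against 0.23 and -2.19 against 0.47. The cathepsin and lysosome list, with the same unequal part of Cst3, had -0.67 against 0.12.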

How the results depend on the processing

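No paired analysis was possible because each genotype had 1 library, so that the groups share fewer than 2 replicate numbers. For the same reason no replicate could be left out. Small numbers of barcodes and of UMIs per gene limit every comparison, and causes of the changes below were not tested. Ratios of single genes are floored where a library had under 3 UMIs. The share of dendritic barcodes kept the order flox/flox, wt/flox, wt/wt under the gate and depth limits below, and the summed interferon list stayed higher in flox/flox, at 0.26 to 1.10 on the log2 scale against wt/wt and 0.70 to 1.02 against wt/flox. The MHC class II limit, on which the shares also depend, was not varied.

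With at least 2 gate UMIs the shares were 0.327% in flox/flox, 0.181% in wt/flox and 0.0911% in wt/wt, and 100% of wt/wt barcodes had Xcr1 or Clec9a. Genes higher and lower numbered 25 and 56 for flox/flox over wt/wt, 52 and 39 for flox/flox over wt/flox, and 37 and 57 for wt/flox over wt/wt. The interferon sum against wt/wt was 0.96, and its medians 0.36 against wt/wt and 0.46 against wt/flox. The MHC class I sum and median were -0.44 and -0.50 for flox/flox over wt/flox, and 0.20 and 0.073 for wt/flox over wt/wt. The cDC2 list stood at -2.51 between the sets. Signs turned for flox/flox over wt/wt in chemokines (1.53), Jchain (-2.70), Igkc (-5.50) and Itgal (-0.22), for flox/flox over wt/flox in the cDC1 list (-0.0013) and S100a8 (0.049), and for wt/flox over wt/wt in the NF-kB feedback list (1.11), Actb (0.059), Anp32e (-0.13), Malat1 (-0.090) and Npc2 (0.090).

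With at least 1000 UMIs per barcode the shares were 1.62%, 1.05% and 0.655% in flox/flox, wt/flox and wt/wt. Without barcodes with macrophage transcripts 73 genes were higher for flox/flox over wt/wt, the interferon median was 0.63, the cDC2 list -2.57, and signs turned in chemokines (0.22, flox/flox over wt/wt), the NF-kB feedback list (0.39) and Itgal (-0.35, both wt/flox over wt/wt). Without barcodes with other lymphoid or endothelial transcripts the interferon median against wt/wt was 0.76 and the MHC class I median against wt/flox 0.071. Signs turned in Jchain (-2.39) and Igkc (-5.20) against wt/wt, and in chemokines (0.040) and Actb (0.10) against wt/flox.

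With CPM taken without abundant hepatocyte and mitochondrial genes the MHC class I median for flox/flox over wt/flox was -0.34. With a minimum of 10 UMIs the interferon medians were 0.35 against wt/wt and 0.86 against wt/flox, and with no minimum 0.084 and 0.69. Genes higher and lower at a minimum of 50 UMIs numbered 28 and 11, 15 and 13, and 28 and 20 in the comparisons flox/flox over wt/wt, flox/flox over wt/flox and wt/flox over wt/wt. At 1.5-fold they numbered 352 and 301, 329 and 322, and 364 and 291.

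Further alternatives were chosen after seeing the data. With free hepatocyte RNA subtracted the MHC class I sum against wt/wt was -0.48. Without its 4 members with most UMIs the interferon sum was 1.10 against wt/wt and 1.02 against wt/flox. In Xcr1 or Clec9a barcodes alone the lysosome list turned to -0.013 for flox/flox over wt/flox, and the NF-kB feedback list to 0.23 for wt/flox over wt/wt. In Cd209a barcodes alone the interferon sum was 0.26 for flox/flox over wt/wt and -0.65 for wt/flox over wt/wt, and the MHC class I sum 0.040 and 0.16.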
